A study of Mus musculus with 8 samples.

Results

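The BCL2 family decides whether a cell survives or starts the mitochondrial route of programmed cell death, and 10 of its genes are described here in early mouse embryos. They were chosen by name, as every probe set whose platform gene symbol is exactly Mcl1, Bcl2l1, Bcl2l2, Bcl2, Bcl2l10, Bak1, Bcl2l11, Bid, Bad or Bik. This gave 35 of the 45101 probe sets, and 10 of the 18193 genes that have a probe set with a single symbol. The samples were 4 arrays of blastocysts (embryonic day 4.5, collected 120 h after hCG, the hormone that times ovulation) and 4 arrays of 8-cell embryos (day 2.5, 66 h after hCG). All embryos were wild type, from B6D2F1 females mated with B6D2F1 males, and none carried a transgene or received a treatment according to the labels. They had been collected as zygotes and grown in KSOM, a culture medium for mouse embryos, under 5% CO2 and 5% O2, so both stages are embryos in culture and not embryos flushed from the mother. The series title concerns the transcription factor AP-2 gamma and the making of tight junctions and the cavity. The stage comparison sets embryos that have a cavity against embryos that have not yet formed it, and the stages differ in more than the cavity.

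Members of the family share short BCL2 homology (BH) motifs and bind one another on the outer mitochondrial membrane. Survival members such as MCL1 and BCL-XL hold back the pore formers BAK and BAX, and BH3-only members such as BIM, BID, BAD and BIK either block the survival members or activate the pore formers. An open pore releases cytochrome c, which starts the caspases. The blastocyst is the stage at which dying cells are regularly seen in mouse embryos, mostly in the inner cell mass, and loss of Mcl1 is lethal around implantation in the mouse.

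Mcl1, Bcl2l10, Bcl2l11, Bid and Bad had a lower signal in blastocysts than in 8-cell embryos, and Bcl2l2, Bak1 and Bik a higher one. Bcl2l1 and Bcl2 did not pass the test. So 3 members were higher, 5 were lower and 2 were not called, against 71.7% of the 13274 tested genes called in this comparison (37.5% higher and 34.2% lower). The signals of the 4 blastocyst arrays and the 4 8-cell arrays did not overlap for 8 of the 10 members, against 66.8% of all tested genes. With most of the transcriptome differing between the stages, a count of 8 in 10 is close to that background. Bak1 passed the filter on dim probe sets through its blastocyst values alone, and without it the other 9 members were 2 higher, 5 lower and 2 not called. With no filter the 10 members had the calls given above, against 55.0% of 18193 genes called. Of the 5 survival genes 1 was higher, 2 were lower and 2 were not called, and of the 5 genes that promote death 2 were higher and 3 were lower. The median difference of the 10 members was -0.50, against 0.02 over all tested genes.

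Each difference subtracts the 8-cell mean from the blastocyst mean of log2(signal + 16) and is given with its standard error (SE). A fold read from them understates the change of dim genes. A gene is represented by its brightest probe set, and was tested where that probe set exceeded the 40th percentile of the array (a signal of 28.3 to 35.7) on at least 4 of the 8 arrays. All 10 members passed, as did 26 of their 35 probe sets. Adjusted p-values come from limma with Benjamini-Hochberg adjustment over all tested genes or, for further probe sets of a gene, over all 28227 tested probe sets, and a result was called at an adjusted p under 0.05. Probe sets bind with different strength, so signals are compared between stages and not between genes. The labels name 4 samples per stage without saying that they came from separate collections of embryos, so the p-values measure the spread between these arrays, which may be technical. Whole embryos were read, so fewer cells of a type and less RNA per cell cannot be told apart.

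Every array had been scaled to a mean signal of 500 after removal of its outer 2%, and arrays of the same stage correlated at 0.977 to 0.988, against 0.752 to 0.780 between stages. The stage markers were chosen with earlier results of these data known, so they describe the arrays and do not check the labels. All 8 trophectoderm markers were higher in blastocysts (summed signal 82068 to 91221 in blastocysts and 3162 to 3758 in 8-cell embryos, Krt18 being the brightest). All 8 tested markers of the oocyte and early cleavage were lower (556 to 868 in blastocysts and 33293 to 40699 in 8-cell embryos, Obox6 being the brightest). Elf5 passed the filter on dim probe sets through blastocysts alone, and Oosp1, Bmp15 and Nlrp14 through 8-cell embryos alone. Inner cell mass and epiblast markers summed to 9139 to 12308 in blastocysts and 9214 to 10046 in 8-cell embryos (brightest, Pou5f1). Of these 5 markers 4 were higher in blastocysts, and Pou5f1 alone was lower (difference -0.90). Primitive endoderm markers summed to 13484 to 15980 in blastocysts and 6946 to 10359 in 8-cell embryos (brightest, Gata6). Of these 6 markers 4 were higher in blastocysts, and Gata6 (-0.555) and Gata4 (-0.95) were lower. Cumulus and granulosa markers summed to 554 to 638 in blastocysts and 6619 to 10335 in 8-cell embryos, and in 8-cell embryos nearly all of the sum came from Amhr2. Without Amhr2 the other 7 summed to 290 to 328 in blastocysts and 254 to 454 in 8-cell embryos. Blood markers summed to 79.3 to 137 in blastocysts and 36.9 to 80.5 in 8-cell embryos (brightest, Lyz2), and fibroblast markers to 205 to 259 in blastocysts and 99.6 to 164 in 8-cell embryos (brightest, Thy1). The part of cell types in the differences below was not tested. The signal at the 3' and 5' ends of control probe sets, which bears on RNA integrity without measuring it alone, moved with stage too. The Actb control probe sets differed between their 3' and 5' ends by 0.82 ± 0.11 log2 units in blastocysts and 2.42 ± 0.19 in 8-cell embryos (SD, n = 4 each). The Gapdh sets differed by 1.36 ± 0.11 in blastocysts and 2.32 ± 0.26 in 8-cell embryos. For each, an exact two-sided permutation test gave p = 0.0286, the smallest that 4 against 4 arrays allow (adjusted p = 0.0286 over the 2 measures). The part of RNA integrity in the differences below was not tested. All values of the 8-cell columns carry 1 decimal while at most 0.375% of the values in a blastocyst column do, so the handling of the arrays and the stage cannot be told apart.

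**Figure D1:**
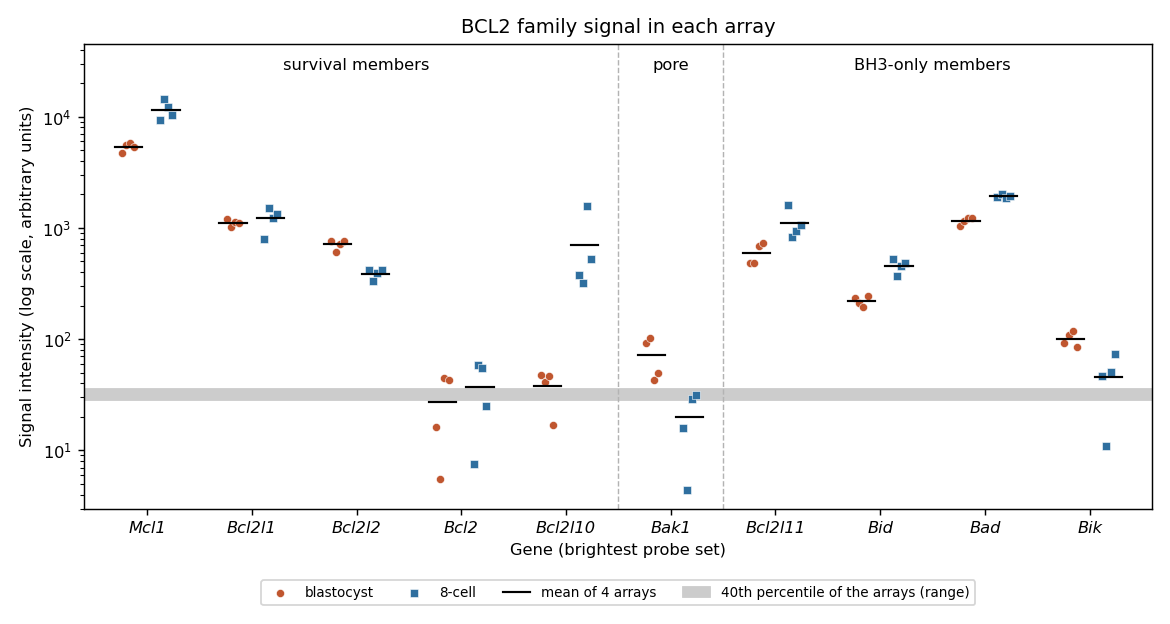
Signal of the brightest probe set of each member on every array, on a log axis, with blastocysts (circles) left of 8-cell embryos (squares), a bar at the mean of 4 arrays and a grey band for the range of the arrays' 40th percentiles. Mcl1 is lower in all 4 blastocyst arrays than in any 8-cell array, Bcl2l10 lies at or near the grey band in blastocysts alone, and Bak1 lies at or under it in 8-cell embryos alone.

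Mcl1 encodes a survival protein that binds BAK and the BH3-only proteins and is turned over quickly. Its brightest probe set, 1448503_at, gave 4739, 5532, 5812 and 5324 in the 4 blastocyst arrays, against 9338, 14423.5, 12172 and 10362.5 in the 8-cell arrays. Every blastocyst array lay below every 8-cell array. The mean was 5352 ± 455 in blastocysts and 11574 ± 2232 in 8-cell embryos (SD, n = 4 each), a difference of -1.09 (SE 0.16, 2.14-fold lower in blastocysts, limma adjusted p = 0.000139). Mcl1 has 6 probe sets, more than any other member. The suffix _x_at of 1437527_x_at, 1456243_x_at and 1456381_x_at marks probes that may also bind other transcripts. All 6 were called lower with no overlap between the stages, by 1.00 to 1.77 log2 units. Over all tested probe sets 32.8% were lower and 61.2% did not overlap. The largest of these differences came from 1416881_at, at 2692 ± 265 in blastocysts and 9177 ± 282 in 8-cell embryos (difference -1.77, SE 0.13, adjusted p = 1.28e-06).

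The promoters of Mcl1, Bcl2l2 and Bcl2l11 are printed to show which letters for AP-2 factors and for TEAD factors stand near genes that differ between the stages. TFAP2C is an AP-2 factor, and TEAD4 is a TEAD factor needed for trophectoderm in the mouse. Each printed run is the 250 bases before a RefSeq transcription start on GRCm38.p6, read 5' to 3' on the gene's strand, and capitals mark a match to the AP-2 motif GCCNNNGGC (which reads the same on both strands) or to the TEAD motif GGAATG on either strand. Of all 32851 RefSeq promoter windows of this length 13.7% hold the AP-2 letters and 12.6% the TEAD letters. Sequences were matched for 8 of the 10 members, with 12 promoters in all. The AP-2 letters were in 4 of these (3 genes) and the TEAD letters in 2 (2 genes). The AP-2 motif is made of G and C. The 4 windows that hold it were 64.8% to 74.8% G and C, against 47.6% to 66.0% in the others. The part of base content in these counts was not tested, nor was their difference from the share over all windows. A match describes the sequence and is not a shown binding site. The Mcl1 window, on the plus strand at chr3:95658471-95658720, holds 1 TEAD match on the opposite strand, beginning 199 bases before the start, and no AP-2 match.
Mcl1 promoter: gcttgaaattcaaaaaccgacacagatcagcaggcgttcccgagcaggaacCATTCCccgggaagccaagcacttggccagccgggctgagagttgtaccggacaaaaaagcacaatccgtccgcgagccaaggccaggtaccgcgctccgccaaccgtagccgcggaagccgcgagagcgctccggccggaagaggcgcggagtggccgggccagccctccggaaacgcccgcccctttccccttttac

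Bcl2l10, an oocyte and ovary member of the family counted here with the survival genes, showed the largest difference of the 10. Its single probe set, 1416434_at, gave 47.8, 41.6, 46.3 and 16.9 in blastocysts, against 375, 318.7, 1587.8 and 530.3 in 8-cell embryos. All blastocyst signals were near or under the 40th percentile of their array while all 8-cell signals were well above it, and 8-cell replicate 3 stood far above the other 8-cell arrays. The difference was -3.47 (SE 0.46, limma adjusted p = 8.56e-05). With blastocyst signals this near the background its size depends on the added constant, from -3.95 with 1 to -2.65 with 64 in place of 16. Without 8-cell replicate 3 it was -2.99 (adjusted p = 1.81e-05). The oocyte and early cleavage markers given above moved in the same direction in all 8 tested genes. Of these, Oosp1, Bmp15 and Nlrp14 passed the filter through 8-cell embryos alone.

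Bcl2l2, the gene of the survival protein BCL-W, was the only one of the 5 survival genes called higher. The probe set 1423572_at gave 763, 605, 723 and 764 in blastocysts, against 419, 331, 390 and 414 in 8-cell embryos. The stages did not overlap. The mean was 714 ± 75.2 in blastocysts and 389 ± 40.2 in 8-cell embryos (SD, n = 4 each), and the difference was 0.85 (SE 0.13, 1.80-fold, limma adjusted p = 0.000236). Of its 4 tested probe sets 2 were higher and 2 were not called. The second higher one, 1430454_x_at, averaged 44.5 ± 4.44 in blastocysts and 12.6 ± 3.00 in 8-cell embryos, where all 4 arrays were under the 40th percentile. It passed the filter only through its blastocyst values, so it adds no support to the first (adjusted p = 0.000145 with no filter). The probe sets that were not called, 1451029_at and 1430453_a_at, differed by 0.39 (95% interval -0.07 to 0.85) and 0.09 (-0.96 to 1.15). The Bcl2l2 window, on the plus strand at chr14:54883175-54883424, holds neither the AP-2 nor the TEAD letters.
Bcl2l2 promoter: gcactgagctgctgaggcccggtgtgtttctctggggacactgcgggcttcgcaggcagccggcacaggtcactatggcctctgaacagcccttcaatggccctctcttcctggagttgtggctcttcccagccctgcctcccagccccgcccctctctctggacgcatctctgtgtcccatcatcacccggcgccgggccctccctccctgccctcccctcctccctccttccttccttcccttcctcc

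Bcl2l1 encodes the survival protein BCL-XL, and from alternative splicing the death-promoting BCL-XS. The probe set 1420888_at gave 1199, 1016, 1139 and 1104 in blastocysts, against 800.3, 1506, 1222 and 1341.8 in 8-cell embryos. The blastocyst arrays fell within the wider range of the 8-cell arrays. The difference was -0.09 (SE 0.19, 95% interval -0.52 to 0.34, limma adjusted p = 0.684), and the sign turned when the hybridisation spike-ins set the scale of the arrays (0.26). Bcl2l1 has 4 probe sets, of which 2 were tested. The dimmer one, 1420887_a_at, averaged 72.3 ± 18.6 in blastocysts and 37.5 ± 20.5 in 8-cell embryos and was higher by 0.81 (SE 0.32, adjusted p = 0.0465). That call was lost with no filter on dim probe sets (adjusted p = 0.0708) and with an added constant of 1 in place of 16 (adjusted p = 0.0861), and also without 8-cell replicate 1, 8-cell replicate 2 or any 1 of the 4 blastocyst arrays (adjusted p = 0.0544 to 0.116).

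Bcl2, the founding survival gene of the family, was close to the background of the arrays at both stages. Its brightest probe set, 1422938_at, gave 16.1, 5.52, 44.8 and 42.6 in blastocysts, against 7.60, 59.1, 55.4 and 25.1 in 8-cell embryos. The stages overlapped, and 2 of 4 arrays of each stage were above the 40th percentile. The difference was -0.27 (SE 0.44, 95% interval -1.26 to 0.72, limma adjusted p = 0.601), so a fall of more than 2-fold lies within the interval. The other 4 probe sets did not pass the filter. Averaged over all 5 probe sets, Bcl2 was lower by 0.49 log2 units (adjusted p = 0.0209), a value that rests mostly on probe sets under the filter.

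Bak1, the gene of the pore former BAK, was higher in blastocysts. It is the only pore former among the 10 members, and Bax is not analysed here. The probe set 1418991_at gave 92.2, 102, 42.6 and 49.3 in blastocysts, against 16, 4.40, 28.8 and 31.2 in 8-cell embryos. All 4 blastocyst arrays exceeded the 40th percentile of the array and none of the 8-cell arrays did, so the gene passed the filter only through the stage in which it is high, and the test given here is that of the fit with no filter. The mean was 71.6 ± 29.9 in blastocysts and 20.1 ± 12.4 in 8-cell embryos (SD, n = 4 each), and the difference was 1.29 (SE 0.32, limma adjusted p = 0.00744 over 18193 genes). The other Bak1 probe set, 1425716_s_at, was under that percentile on all 8 arrays, and with both averaged the difference was 0.58 and was not called (adjusted p = 0.0621). For so dim a gene the size depends on the added constant, from 0.67 with 64 to 1.98 with 1 in place of 16. Bok, a further pore-forming relative from the list of other BCL2 family genes, averaged 1634 ± 116 in blastocysts and 1526 ± 139 in 8-cell embryos and was not called (difference 0.10, SE 0.12, adjusted p = 0.467).

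Bcl2l11 encodes BIM, a BH3-only protein that binds all the main survival members and is made in several splice forms. The probe set 1456005_a_at gave 485, 480.0, 691 and 727 in blastocysts, against 1598, 834, 935 and 1057.5 in 8-cell embryos. The stages did not overlap, though the nearest arrays, at 727 and 834, were close. The mean was 596 ± 132 in blastocysts and 1106 ± 340 in 8-cell embryos (SD, n = 4 each), and the difference was -0.86 (SE 0.23, limma adjusted p = 0.00705). The call was lost when the hybridisation spike-ins set the scale of the arrays (difference -0.50, adjusted p = 0.157).

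The 5 Bcl2l11 probe sets differed widely in size while sharing a direction. The probe set 1426334_a_at gave 35.1, 61.2, 39.1 and 96.2 in blastocysts, against 577.5, 645.8, 412.9 and 598.2 in 8-cell embryos, a difference of -3.01 (SE 0.26, limma adjusted p = 4.56e-06). Its blastocyst arrays all lay far below its 8-cell arrays. The probe set 1435449_at was lower by 1.11 (SE 0.20, adjusted p = 0.000629). The dim probe set 1456006_at was lower by 1.08 (SE 0.42, adjusted p = 0.0442) with overlapping stages. Only 1 of its 4 blastocyst arrays exceeded the 40th percentile. That call was lost without any 1 of 6 of the arrays (adjusted p = 0.0760 to 0.117) and with no filter (adjusted p = 0.0666). It was also lost with an added constant of 1 (adjusted p = 0.059) and on the spike-in scale (adjusted p = 0.182). The call held without 8-cell replicate 3 (adjusted p = 0.0434) or without blastocyst replicate 4, whose signal of 97.9 was the highest of its stage (difference -1.53, adjusted p = 0.000717). The probe set 1435448_at differed by -0.61 (95% interval -1.16 to -0.05, adjusted p = 0.0531) and was not called. It was called lower with quantile normalization (-0.86, adjusted p = 0.0108) and under 4 other settings that kept all arrays and used no block (adjusted p = 0.0218 to 0.0364). Within an array, the log2 signal of 1426334_a_at minus that of 1456005_a_at ran between -3.68 and -2.68 in blastocysts and between -1.44 and -0.36 in 8-cell embryos. This within-array contrast was chosen after the values were seen and was not tested, and it shows unequal change of the probe sets, not which transcripts they read.

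RefSeq gives Bcl2l11 a pair of separate starts, both with AP-2 letters. The window before the first, at chr2:128125788-128126037 on the plus strand, holds 2 AP-2 matches, beginning 141 and 95 bases before the start.
Bcl2l11 promoter, first start: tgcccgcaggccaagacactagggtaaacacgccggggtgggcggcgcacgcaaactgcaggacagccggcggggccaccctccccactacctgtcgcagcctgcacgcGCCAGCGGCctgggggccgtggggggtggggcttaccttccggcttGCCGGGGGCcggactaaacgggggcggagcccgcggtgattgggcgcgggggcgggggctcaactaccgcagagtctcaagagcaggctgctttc
The window before the second, at chr2:128127325-128127574 on the plus strand, also holds 2, beginning 153 and 48 bases before the start.
Bcl2l11 promoter, second start: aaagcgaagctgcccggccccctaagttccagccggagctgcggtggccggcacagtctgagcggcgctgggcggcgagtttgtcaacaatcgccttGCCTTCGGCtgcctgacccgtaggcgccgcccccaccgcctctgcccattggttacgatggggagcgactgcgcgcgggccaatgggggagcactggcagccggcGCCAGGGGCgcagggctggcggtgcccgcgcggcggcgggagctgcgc
Neither Bcl2l11 window holds the TEAD letters. Among the other members, AP-2 letters were found before Bcl2 (not called) and before 1 of 2 starts of Bad (lower), and TEAD letters before 1 of 3 starts of Bcl2l1 (not called).

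**Figure D2:**
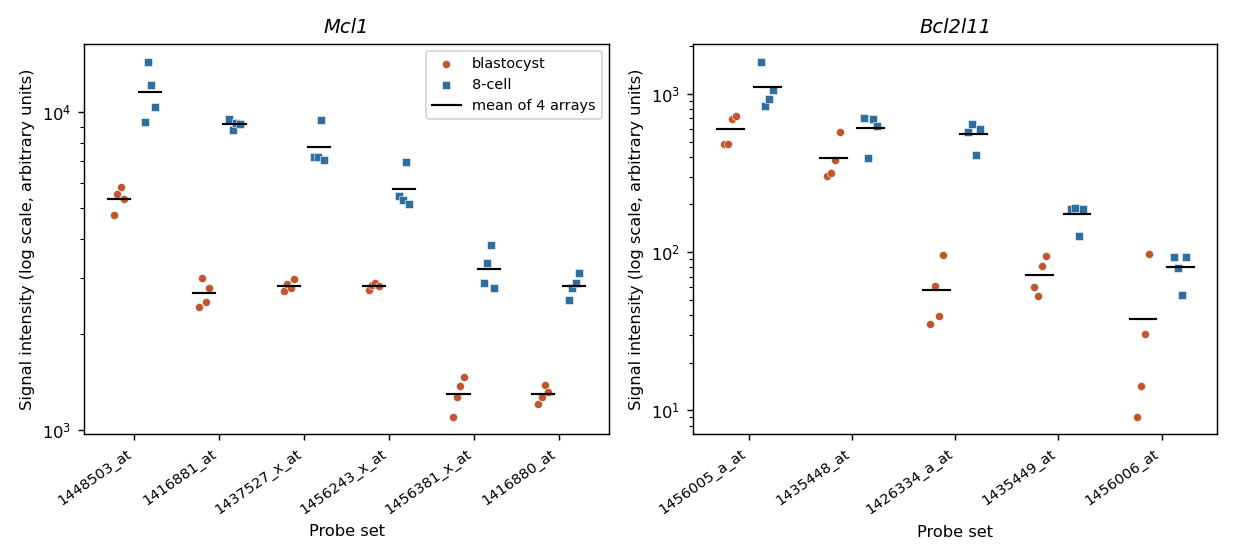
Signal of every Mcl1 and Bcl2l11 probe set on each array, on a log axis, with blastocysts left of 8-cell embryos. All 6 Mcl1 probe sets are lower in every blastocyst array than in any 8-cell array, and among the 5 of Bcl2l11 the stages are farthest apart for 1426334_a_at.

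Bid encodes a BH3-only protein that caspase-8 cuts to link death receptors to the mitochondria. The probe set 1417045_at gave 237, 209, 193 and 246 in blastocysts, against 521, 372.5, 452 and 488 in 8-cell embryos. The stages did not overlap. The difference was -0.99 (SE 0.14, 1.99-fold lower in blastocysts, limma adjusted p = 0.000135), and the other tested probe set, 1447873_x_at, was lower by 0.91 (SE 0.20, adjusted p = 0.00251). For 1447873_x_at only 1 of 4 blastocyst arrays exceeded the 40th percentile, and its suffix marks probes that may also bind other transcripts. The remaining Bid probe set did not pass the filter. On the spike-in scale 1417045_at was lower by 0.64 (adjusted p = 0.0265 among genes) and 1447873_x_at was not called (-0.56, adjusted p = 0.0921).

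Bad encodes a BH3-only protein that survival kinases phosphorylate and 14-3-3 proteins then hold away from mitochondria. The probe set 1416582_a_at gave 1034, 1143, 1239 and 1227.5 in blastocysts, against 1911, 2032, 1866 and 1950.2 in 8-cell embryos. The arrays of each stage were close together and the stages far apart relative to that spread. The mean was 1161 ± 94.8 in blastocysts and 1940 ± 70.2 in 8-cell embryos (SD, n = 4 each), with a difference of -0.74 (SE 0.11, 1.67-fold lower in blastocysts, limma adjusted p = 2e-04). The other probe set, 1416583_at, was lower by 1.08 (SE 0.14, adjusted p = 6.94e-05). Scaled to the spike-ins, the first kept its sign at -0.38 and was not called (adjusted p = 0.184), while the second was lower by 0.72 (adjusted p = 0.0154).

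Bik encodes a BH3-only protein of the endoplasmic reticulum. The probe set 1449836_x_at gave 91.5, 110.1, 118 and 84.7 in blastocysts, against 46.8, 10.9, 51.2 and 73.1 in 8-cell embryos. The stages did not overlap, with 8-cell replicate 4 nearest to the blastocysts. The difference was 1.05 (SE 0.32, 2.06-fold higher in blastocysts, limma adjusted p = 0.0156), and without 8-cell replicate 2, the lowest array, it was 0.69 (adjusted p = 0.00673). It was 0.62 with an added constant of 64, and 0.64 averaged over the 3 probe sets, and was called under both (adjusted p = 0.00434 and 0.0162). The probe set 1420362_a_at differed by 0.43 (95% interval -0.14 to 1.00, adjusted p = 0.164) and was not called, and the third did not pass the filter. The suffix _x_at marks probes that may also bind other transcripts, and of the other Bik probe sets only 1420362_a_at was bright enough to be tested.

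Over all 26 tested probe sets of the 10 genes, 5 were higher, 15 were lower and 6 were not called, against 66.4% of the 28227 tested probe sets called (33.6% higher and 32.8% lower). Without the 2 that passed the filter through blastocysts alone, 1418991_at of Bak1 and 1430454_x_at of Bcl2l2, 3 of 24 were higher. The stages did not overlap for 19 of the 26, against 61.2% of all tested probe sets. The median difference was -0.88, against -0.01 over all tested probe sets. Mcl1 and Bcl2l11 supply 11 of the 26, and probe sets of 1 gene are not independent. No member had tested probe sets called in opposite directions.

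**Figure D3:**
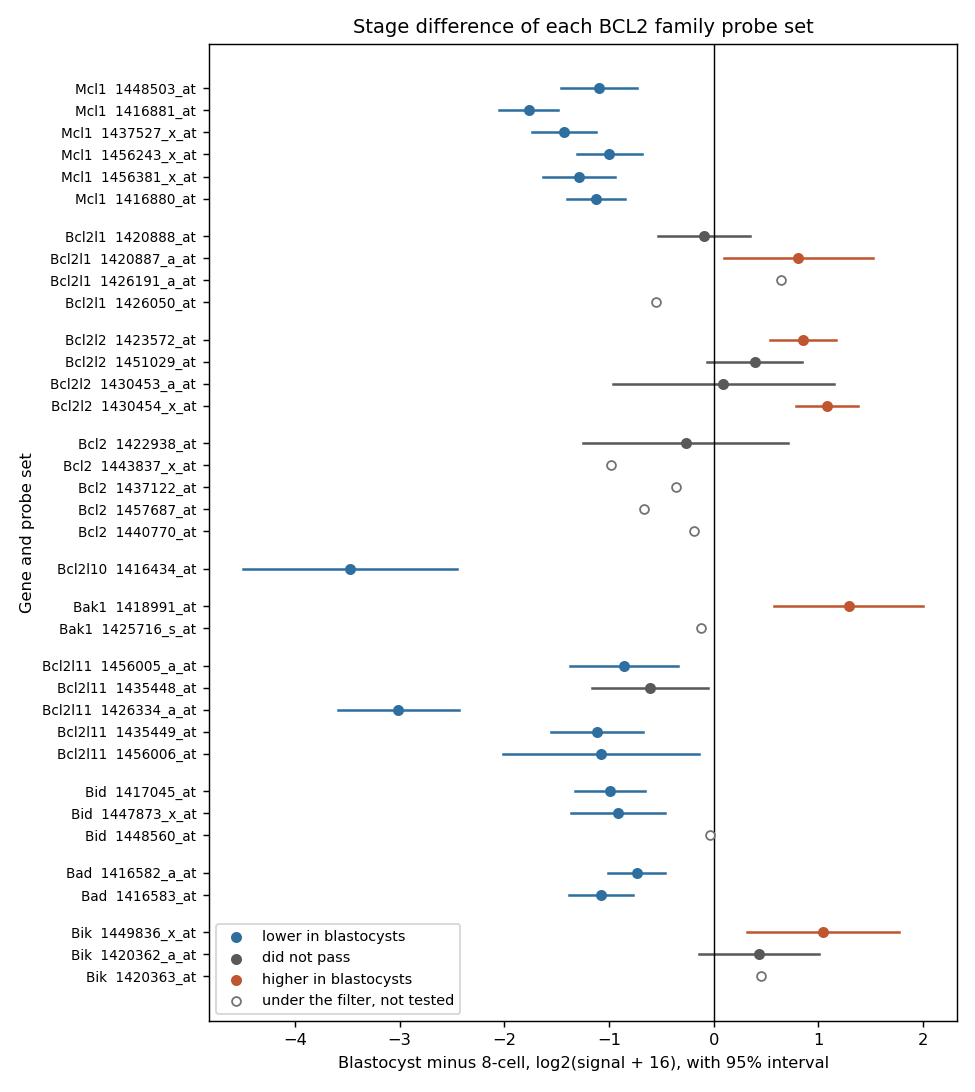
Difference between blastocysts and 8-cell embryos for each of the 35 probe sets on the log2(signal + 16) scale. The 26 tested ones are filled, with unadjusted 95% intervals and colours for the call after adjustment, and those under the filter are open circles. The 15 lower probe sets belong to Mcl1, Bcl2l10, Bcl2l11, Bid and Bad, and the 5 higher ones to Bcl2l1, Bcl2l2, Bak1 and Bik.

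The spread between arrays of a stage differed among the members. Bad was the tightest in 8-cell embryos, with an SD of log2 values of 0.12 in blastocysts and 0.05 in 8-cell embryos, against medians over all tested genes of 0.20 in blastocysts and 0.25 in 8-cell embryos. Bcl2l10 had an SD of 0.45 in blastocysts and 1.02 in 8-cell embryos. Bcl2 had 0.72 in blastocysts and 0.78 in 8-cell embryos, and Bik had 0.19 in blastocysts and 0.74 in 8-cell embryos. For Bcl2, Bcl2l10, Bak1 and Bik, which are dim in a stage or in both, the intervals are accordingly wide.

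**Figure D4:**
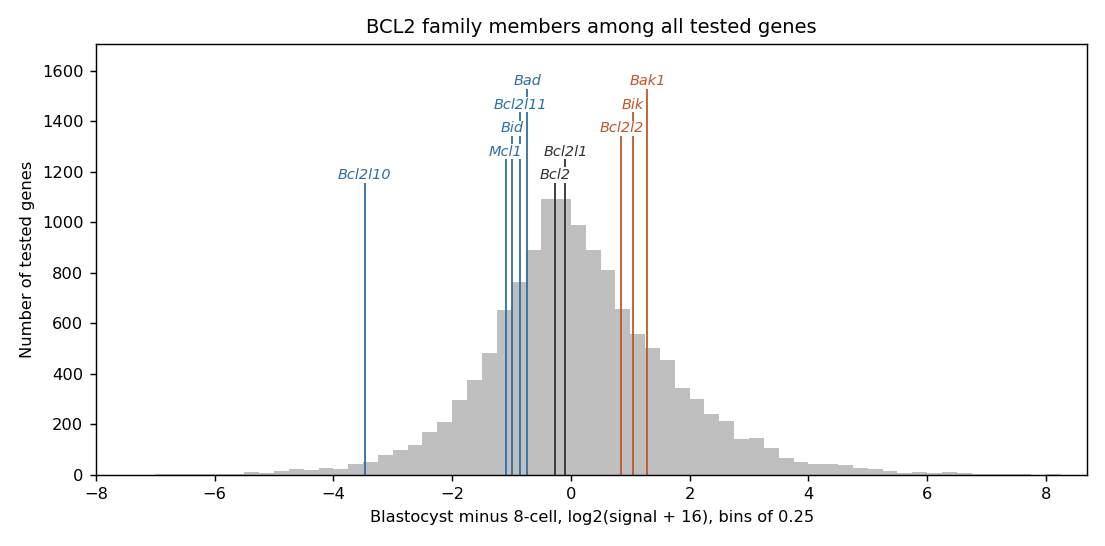
Histogram of the difference between blastocysts and 8-cell embryos over all 13274 tested genes in bins of 0.25 log2 units, with a line at each member. Apart from Bcl2l10 at -3.47, the members lie between -1.09 and 1.29, within the body of the distribution.

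The genes whose signals ran most like those of a member over the 8 arrays were found for the called members with the highest and lowest differences. They were Tfip11, Tcte1 and Pdrg1 for Bcl2l10 (Pearson r = 0.989 to 0.990), Crmp1, F2 and Rnf41 for Mcl1 (0.989 to 0.994), Exoc1, Smc1b and Ankrd50 for Bik (0.958 to 0.973), and Cope, Cops7a and Cenpt for Bak1 (0.972 to 0.982). These are descriptions over 8 arrays that share 2 stages, and the stage difference alone gives high values.

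The rest of the pathway was read from 6 lists of 64 genes, of which 53 were tested, with 25 higher in blastocysts, 16 lower and 12 not called (71.7% of all tested genes were called). The median difference of these 53 was 0.25, against 0.02 over all tested genes. Of 10 other tested BCL2 family genes 2 were higher, 5 were lower and 3 were not called. Pmaip1, whose product NOXA is a BH3-only protein that binds MCL1, was higher by 1.74 (SE 0.26, limma adjusted p = 0.000221), and Bcl2l12 was higher by 1.92 (SE 0.31, adjusted p = 0.000368), though its second probe set was not called (-0.23, adjusted p = 0.645). Bcl2l14 was lower by 2.73 (SE 0.20, adjusted p = 1.59e-06) and Bcl2l13 by 1.45 (SE 0.12, adjusted p = 2.64e-06).

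Genes of mitochondrial release and the apoptosome were 7 higher, 2 lower and 2 not called of 11, against 37.5% higher and 34.2% lower over all tested genes. Opa1, which keeps the cristae of the inner membrane closed, was higher by 2.06, Vdac2, an outer membrane channel that binds BAK, by 1.75, and Dnm1l, which divides mitochondria, by 1.55. Endog, a mitochondrial nuclease, was lower by 2.02 (adjusted p = 5.5e-07 to 7.88e-06 for these 4). Of 6 tested caspase and nuclease genes 3 were higher, 1 was lower and 2 were not called. Casp2 was higher by 2.56 (SE 0.13), Casp9, the caspase of the apoptosome, by 1.97 (SE 0.22) and Casp6, an executioner caspase, by 0.43 (SE 0.13, adjusted p = 0.0122), while Dffb, the nuclease that cuts DNA in dying cells, was lower by 1.31 (SE 0.18). With all probe sets averaged, Casp6 was not called (0.21, adjusted p = 0.304), and the Casp9 difference was 0.73. For Casp9 only 1 of 4 8-cell arrays was above the 40th percentile, as for Bcl2l12, so its size depends on the added constant (1.27 with 64 and 2.44 with 1).

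Inhibitors of apoptosis, which bind caspases or ubiquitinate death proteins, were 2 higher, 2 lower and 1 not called of 5. Birc2 was higher by 1.75 (SE 0.15) and Birc3 lower by 2.23 (SE 0.20), so these close relatives moved in opposite directions. Birc6 was lower by 1.23 (SE 0.13) on its brightest probe set, and by 0.49 (adjusted p = 0.00898) with all its probe sets averaged. Birc5 was higher by 0.28 (SE 0.11, adjusted p = 0.0361), a call lost under 8 of 20 alternatives, among them leaving out 8-cell replicate 1, 8-cell replicate 2 or any 1 blastocyst array (adjusted p = 0.0538 to 0.0864). Of 5 tested death receptor genes 4 were higher and 1 was lower (37.5% and 34.2% over all tested genes). The adaptor Tradd was higher by 2.52 (SE 0.25), the receptor Tnfrsf1a by 0.91 (SE 0.21) and Cflar, which blocks caspase-8, by 1.67 (SE 0.31), though Cflar was not called with all probe sets averaged (0.30, adjusted p = 0.213). The receptor gene Tnfrsf10b was lower by 0.64 (SE 0.18, adjusted p = 0.0105), and was not called on the spike-in scale (-0.28, adjusted p = 0.383).

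Genes whose products control the members as proteins, through phosphorylation, binding or destruction, were 7 higher, 5 lower and 4 not called of 16, a share called near the 71.7% over all tested genes. Pim1 and Pim3, kinases that phosphorylate BAD, were lower by 3.59 (SE 0.13) and 1.21 (SE 0.13). Fbxw7, a ubiquitin ligase subunit that targets MCL1, was higher by 3.06 (SE 0.20). Ywhaz, the 14-3-3 zeta gene, was higher by 1.03 (SE 0.13) on its brightest probe set, and 1 of its 7 probe sets, 1436981_a_at, was lower by 1.35. The adjusted p of these 4 genes ran between 3.69e-08 and 5.64e-05.

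**Figure D5:**
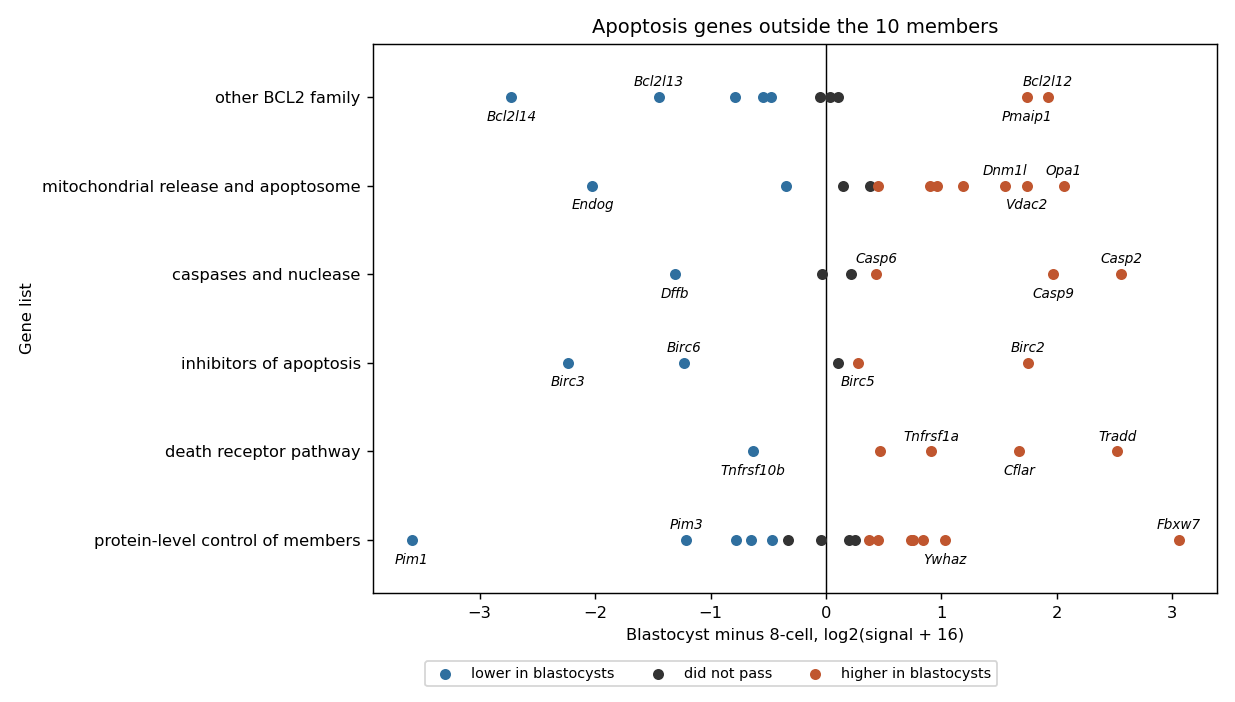
Difference between blastocysts and 8-cell embryos on the log2(signal + 16) scale for each of the 53 tested genes of the 6 lists, 1 point per gene, with the 4 called genes of largest difference in each list named. Every list holds both higher and lower genes, from Pim1 at -3.59 to Fbxw7 at 3.06.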

How the data were processed

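The authors deposited linear signal intensity for 45101 probe sets on 8 one-colour arrays, 4 per stage, and the values show each array scaled to a mean of 500 after removal of the outer 2%. Per the labels' protocols, RNA was column-purified, amplified with a small-sample assay and labelled with biotin. The software behind the values was not given in the sources used here. A probe set names a gene where the platform annotation gives 1 symbol (34945 probe sets), while 932 have several, 9160 none and 64 are controls. Values became log2(signal + 16), and blastocyst minus 8-cell was fitted with limma (lmFit and eBayes, no covariates, Benjamini-Hochberg, 0.05) over 13274 genes and, separately, 28227 probe sets that passed the filter. The fit was also run on simulated data with independent noise and few changed probe sets. Most genes differed in the real data, so that run gives no error rate for them. The members, gene lists and tests were chosen with earlier results of these data known. All members were named with all their probe sets, as were the 4 called genes of largest difference per list, the 3 most correlated genes for the 2 highest and 2 lowest called members (clone-derived symbols and _x_at probe sets left out), and the brightest marker per list. Same-numbered arrays of the stages did not deviate together (correlations between -0.04 and -0.02), so the numbers were not taken as pairs. Alternatives were quantile, median and spike-in scaling, no filter or the 60th percentile, an added 1 or 64, array weights, an intensity trend, a replicate block, other ways to choose probe sets, and leaving out each array. R 4.3.3, limma 3.58.1, data.table (version 1.17.8), Python 3.11.15 and matplotlib 3.10.9 were used.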

Additional observations from a re-analysis of the deposited data

Results flagged for a closer look

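For each of the 35 probe sets and both stages (70 groups of 4 arrays), the highest and lowest array were set against the others on the signal and log2 scales, and in 12 groups 1 array stood apart by Dixon's criterion. On the signal scale 11 groups were marked and on the log2 scale 8. For normally distributed values chance marks about 1 in 20 groups, and more over both scales together. The values cannot be normal on both scales, so that rate is only a rough guide here. The array was 8-cell replicate 3 in 4 of the 12 and 8-cell replicate 4 in 3. Among the 8-cell arrays these had the highest (11.89 log2 units) and the lowest (11.23) mean of the hybridisation spike-ins. The part of this in the values was not tested.

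For Bcl2l10, blastocyst replicate 4 gave 16.9, with the next array at 41.6, and 8-cell replicate 3 gave 1587.8, with the next at 530.3. For Mcl1 the probe set 1437527_x_at gave 9443 in 8-cell replicate 3, with the next array at 7252.5. For Bcl2l11 the probe set 1435449_at was lowest in 8-cell replicate 3, at 127, with the next at 186.2. For Bid the probe set 1447873_x_at gave 49.9 in blastocyst replicate 3, with the next at 26.3. The others lay near the background of the arrays. They were Bcl2l1 1426191_a_at (33.6 in 8-cell replicate 4), Bcl2 1443837_x_at (23.5 in blastocyst replicate 3), Bcl2 1440770_at (13.1 in blastocyst replicate 4 and 22.9 in 8-cell replicate 4), Bak1 1425716_s_at (22.8 in blastocyst replicate 2), Bid 1448560_at (53.7 in 8-cell replicate 4) and Bik 1420363_at (20.3 in 8-cell replicate 3).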

How the results depend on the processing

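Of the 10 members, Mcl1, Bcl2l2, Bcl2l10 and Bid kept their call and direction under all 21 alternatives, and Bik under the 19 in which it could be tested. No called member changed sign. Leaving out each array in turn left 3 members higher and 5 lower every time, with 4 to 7 probe sets higher and 14 to 16 lower. In these fits 68.7% to 70.3% of all tested genes were called. Scaling to 18 hybridisation spike-in probe sets moved the median of all tested genes to 0.37 (0.02 on the deposited scale) and the share of calls that were higher to 66.8% (52.3% on the deposited scale). It left 3 members, 8 genes of the apoptosis lists and 2806 of all tested genes lower, and the 2 members lost were Bcl2l11 and Bad. Scaling to 9 of these probe sets whose names carry r2, chosen after seeing the data, gave a median of 0.29, 63.4% of calls higher, 3 members lower and 9 list genes lower. At the 60th percentile filter 1 member and 1 member probe set were higher, since Bak1 and Bik, and of the probe sets also Bcl2l1 1420887_a_at and Bcl2l2 1430454_x_at, were no longer tested. With that filter 81.3% of 10228 tested genes were called. A fit with replicate number as a block (replicate block) gave 3 members higher and 5 lower, 4 and 16 probe sets, and 24 and 16 list genes. It called 69.9% of all tested genes. Under the replicate block Birc5 (adjusted p = 0.0857) and Bcl2l1 1420887_a_at (0.0772) lost their calls, and Bcl2l11 1435448_at was called lower (0.0432). Averaging a gene's probe sets shrank several list genes that stayed called, to 1.67 for Tradd, 1.28 for Opa1, 0.99 for Dnm1l, 0.85 for Bcl2l12 and -1.02 for Birc3. Without probe sets ending in _x_at, _s_at or _a_at, Pim3 was at -1.99 and Ywhaz at 2.00. Without 8-cell replicate 3, Bcl2l2 1451029_at (0.52, adjusted p = 0.0478) and Bik 1420362_a_at (0.66, adjusted p = 0.0187) were called higher, and Bcl2l11 1435448_at was called lower without 8-cell replicate 2 (-0.80, adjusted p = 0.0129) or blastocyst replicate 4 (-0.80, adjusted p = 0.0124). The 4 arrays per stage limit the precision, and Bcl2, Bcl2l10, Bak1 and Bik lay near the background signal in at least 1 stage.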
